A study of Mus musculus with 12 samples.

Results

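ZBTB43 affinity-seq peaks on methylated DNA that held a long CA repeat and no CpG were examined. A peak of the SssI list was taken when its interval in the mm10 reference lay on an autosome, contained 0 CpGs and held an unbroken CA repeat of at least 50 bp. The repeat could be on either strand and start at either base. The rule was met by 8682 of the 175775 SssI peaks, or of the 169284 SssI peaks on autosomes. They were compared with 11848 CpG-free SssI peaks whose longest CA repeat was 12 to 30 bp, called the short class below. Beyond a place in the SssI list, the rule used sequence alone and no value from the TKO list.

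In the experiment, full-length MBP-ZBTB43 on magnetic beads was mixed with sonicated mouse DNA, and the captured DNA was sequenced. SssI DNA was lung DNA of adult wild type male C57BL/6N mice, 2 months old, in which the bacterial enzyme M.SssI had methylated the CpGs. TKO DNA came from ES cells with the genotype Dnmt1-/- Dnmt3a-/- Dnmt3b-/-, which lack the enzymes that methylate CpGs. They were male and 1 clone, with a labelled age of 3.5 dpc. MBP without ZBTB43 gave the background on each DNA. Each of these 4 conditions had 2 libraries, and 4 more libraries from sperm DNA were not analysed here. The authors pooled the duplicates before they called peaks, so each DNA had 1 list without replicate error, and no test between the DNAs was made from the lists. Signals of single libraries were not analysed here. Cell type also differed between the DNAs and cannot be told apart from methylation, and the labels name no strain background for the ES cells. Neither the methylation state nor the repeat lengths could be checked in the DNA itself. The lists hold no counts, so the depth behind each peak was not computed. The study's methods state a minimum depth for the affinity-seq libraries in general.

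ZBTB43 is a zinc finger protein of the large family of BTB transcription factors. A CA repeat alternates purines and pyrimidines along each strand, and such sequence can leave the usual right-handed B form for the left-handed Z-DNA. CA repeats are among the most common microsatellites of the mouse genome. M.SssI methylates cytosine in CpG only, so a CpG-free peak offered no target for the enzyme within its borders. The captured fragments averaged 200 bp and could reach CpGs outside the peak.

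The sequences behind the results are shown first, on the plus strand of mm10. Each CA repeat of 12 bp or more is in capitals, read as CA or as TG according to the strand that carries it. The first is close to the median of the members with 1 repeat in score, width and repeat length, and had no CpG within 200 bp of either side. It was chosen after its values were seen.
chr19:29999059-29999245: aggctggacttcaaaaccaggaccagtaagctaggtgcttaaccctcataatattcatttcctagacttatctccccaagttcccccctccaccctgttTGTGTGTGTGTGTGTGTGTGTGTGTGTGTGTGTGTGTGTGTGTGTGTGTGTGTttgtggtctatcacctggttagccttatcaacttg
The longest unbroken repeat within a member measured 108 bp and stood alone in its peak. It had no TKO peak.
chr8:40662529-40662828: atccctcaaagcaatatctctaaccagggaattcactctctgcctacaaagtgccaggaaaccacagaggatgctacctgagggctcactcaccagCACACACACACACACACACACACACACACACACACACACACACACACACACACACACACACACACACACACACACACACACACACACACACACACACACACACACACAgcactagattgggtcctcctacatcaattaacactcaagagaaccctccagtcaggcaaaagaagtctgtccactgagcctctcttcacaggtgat
An 83-bp repeat in Sema4b, a gene of the semaphorin family of guidance cues, also stood alone, and it did have a TKO peak. It was the longest among shared members with 1 repeat and was chosen after its values were seen.
chr7:80222347-80222646: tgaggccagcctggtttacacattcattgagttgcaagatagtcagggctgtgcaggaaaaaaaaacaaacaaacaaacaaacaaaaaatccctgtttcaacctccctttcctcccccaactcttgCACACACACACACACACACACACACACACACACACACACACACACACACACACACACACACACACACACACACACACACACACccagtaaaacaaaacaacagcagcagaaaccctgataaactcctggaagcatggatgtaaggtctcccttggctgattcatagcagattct
The member with the most repeats held 28 of them, and the middle 300 bp around its longest repeat of 100 bp show how few bases divide them. It had a TKO peak.
chr5:20978949-20979248: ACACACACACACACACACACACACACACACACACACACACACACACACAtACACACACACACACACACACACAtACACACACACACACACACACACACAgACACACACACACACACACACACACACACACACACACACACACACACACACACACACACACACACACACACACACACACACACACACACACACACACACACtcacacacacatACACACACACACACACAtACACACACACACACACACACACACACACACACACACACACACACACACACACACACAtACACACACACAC
A member in Lrp1b, a gene of the low-density lipoprotein receptor family, held 4 repeats and had a TKO peak.
chr2:42251854-42252153: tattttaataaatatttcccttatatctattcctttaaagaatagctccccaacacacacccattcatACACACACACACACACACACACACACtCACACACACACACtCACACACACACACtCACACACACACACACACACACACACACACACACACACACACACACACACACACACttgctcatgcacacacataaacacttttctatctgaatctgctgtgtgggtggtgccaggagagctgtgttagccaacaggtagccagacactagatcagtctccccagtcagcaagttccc
A member with 3 repeats and no TKO peak is given for comparison. It lies in Acyp2, an acylphosphatase gene.
chr11:30558369-30558668: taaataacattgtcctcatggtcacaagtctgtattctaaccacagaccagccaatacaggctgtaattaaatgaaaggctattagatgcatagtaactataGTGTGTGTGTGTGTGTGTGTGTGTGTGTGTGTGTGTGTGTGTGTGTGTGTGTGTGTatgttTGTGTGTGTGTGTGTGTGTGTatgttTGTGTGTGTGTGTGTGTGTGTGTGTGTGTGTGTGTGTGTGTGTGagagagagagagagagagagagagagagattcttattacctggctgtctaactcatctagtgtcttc
The last is the peak of the short class with the highest SssI score among those with no TKO peak. Its longest repeat was only 12 bp, but many shorter TG stretches surround it.
chr10:22490939-22491238: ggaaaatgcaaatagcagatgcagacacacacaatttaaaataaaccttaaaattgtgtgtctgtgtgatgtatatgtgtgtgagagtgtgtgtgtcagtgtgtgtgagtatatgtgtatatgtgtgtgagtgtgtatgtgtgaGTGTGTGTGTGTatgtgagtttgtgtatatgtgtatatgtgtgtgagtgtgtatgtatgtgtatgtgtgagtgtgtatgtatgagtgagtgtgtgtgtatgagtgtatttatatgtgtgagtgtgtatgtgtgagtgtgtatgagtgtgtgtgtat

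A TKO peak overlapped 223 of the 8682 members by 1 bp or more, or 2.57% (95% Wilson interval 2.26 to 2.92%). In the short class it overlapped 380 of 11848 peaks, or 3.21% (2.90 to 3.54%). The background was 2.86% of all 53404 CpG-free autosomal SssI peaks and 8.47% of all autosomal SssI peaks. Members were thus close to other CpG-free peaks. The difference, long minus short, was -0.639 percentage points (Newcombe interval -1.10 to -0.17). On 13 of 19 autosomes the share was lower in the long class. These intervals treat peaks as independent and cover counting error only. The direction of this small difference was not stable across processing choices. It was 0.20 points the other way where no CpG was allowed within 200 bp (-0.91 to 1.37) and 0.75 points the other way where repeats could hold 1 substituted base (0.29 to 1.19).

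Repeat length within the members did not order the TKO share up to 79 bp. Of members with a longest repeat of 50 to 54 bp, 137 of 5468 had a TKO peak (2.51%). The share was 57 of 2319 at 55 to 59 bp (2.46%) and 24 of 830 at 60 to 69 bp (2.89%). It was 1 of 51 at 70 to 79 bp, with an interval of 0.347 to 10.3%. The 14 members with at least 80 bp stood apart, with 4 shared (28.6%, interval 11.7 to 54.6%). Of these 14, 7 held 1 repeat and 1 of the 7 was shared, whereas 3 of the 7 with further repeats were shared. Members of 60 bp or more exceeded those of 50 to 59 bp by 0.749 points, with an interval from -0.294 to 2.16. Below the members, the share ran from 4.22% at 12 to 15 bp to 2.34% at 26 to 30 bp and lay between 2.06 and 2.93% from 31 to 49 bp. On either side of the limit, 84 of 3405 peaks with 48 or 49 bp (2.47%) and 70 of 2741 with 50 or 51 bp (2.55%) were shared.

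SssI peak scores, in contrast, rose with repeat length. The score is 10 times the −log10 q-value of the peak over MBP, so it grows with the number of reads as well as with enrichment. The median was 71 in the short class, with quartiles of 46 and 128. Among the members it was 120, with quartiles of 80 and 191. It was 113 at 50 to 54 bp, 132 at 55 to 59 bp, 169 at 60 to 69 bp and 223 at 70 to 79 bp. The 14 longest reached a median of 434. Quartiles of neighbouring bins overlapped throughout, and within the members length ordered the scores only weakly (Spearman's rho 0.183 across 8682 peaks of 1 list, given as a description). The same order held among members with 1 repeat and no CpG within 200 bp, at a median of 102, 120 and 158 for the first 3 bins. Between 12 and 40 bp the median of all CpG-free peaks stayed between 69 and 73. Within the members, peak width rose with repeat length as well, from a median of 189 bp at 50 to 54 bp to 283 bp at 80 bp or more. Scores were not matched for width.

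**Figure D1:**
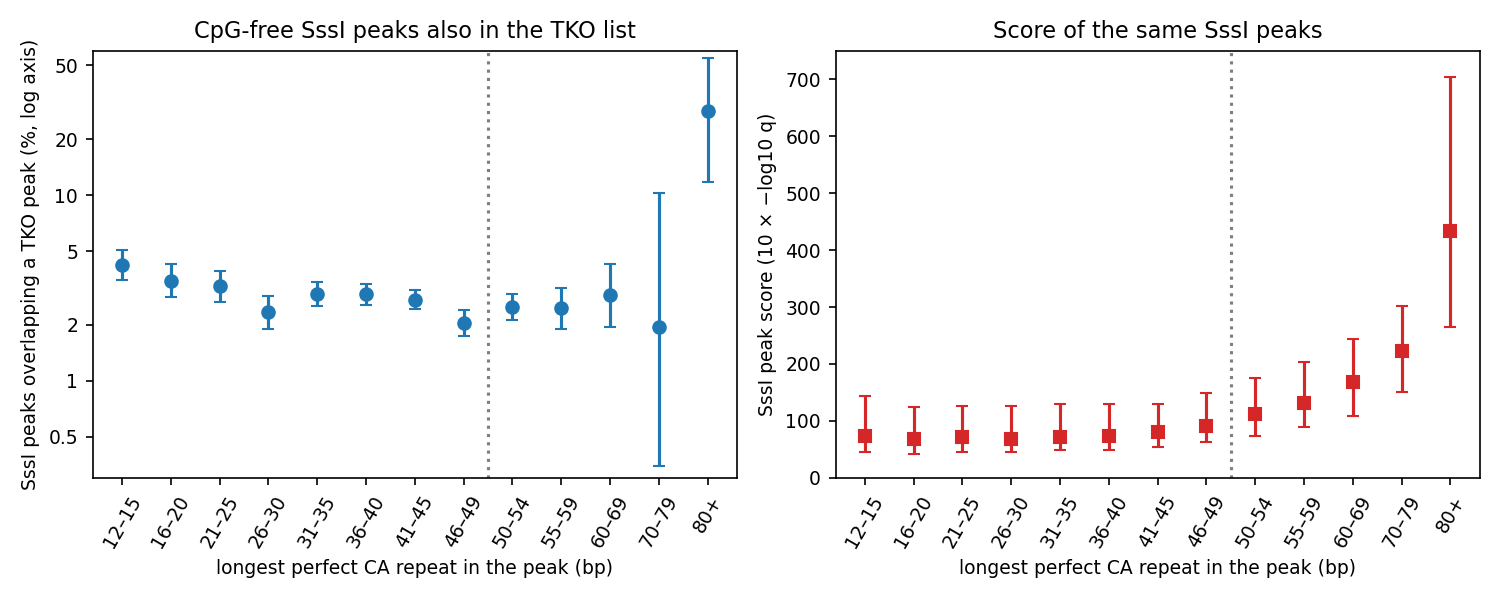
Left, share of CpG-free autosomal SssI peaks that overlap a TKO peak (%, log axis) by the longest perfect CA repeat in the peak; bars are 95% Wilson intervals. Right, median SssI score (10 × −log10 q) of the same peaks, with bars from the lower to the upper quartile; the dotted lines mark the 50-bp limit. From 12 to 79 bp the share stays between 1.96 and 4.22%, while the median score climbs from 113 at 50 to 54 bp to 434 at 80 bp or more.

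The number of separate repeats in the peak followed the TKO share far more closely than length did. Repeats of 12 bp or more were counted, each ended by at least 1 base that broke the pattern. Of the members, 7544 held 1 repeat, and 48 of these had a TKO peak (0.636%, interval 0.480 to 0.843%). With 2 repeats the count was 56 of 873 (6.41%, 4.97 to 8.24%). With 3 it was 39 of 156 (25.0%, 18.9 to 32.3%), and with 4 or more it was 80 of 109 (73.4%, 64.4 to 80.8%). Members with 2 or more repeats were 14.7 points above those with 1 (12.75 to 16.96), and they were above on 19 of 19 autosomes. The shared members therefore came mostly from a small group, as 175 of 223 held more than 1 repeat (78.5%), against 963 of 8459 others (11.4%). The median longest repeat was 53 bp in shared members and 53 bp in the others.

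The short class showed a weaker form of the same order. Its shares were 1.28% with 1 repeat (88 of 6884), 2.15% with 2 (75 of 3492), 4.94% with 3 (43 of 871) and 28.95% with 4 or more (174 of 601). At a matched number of repeats the classes differed, and the sign changed. For 1 repeat the difference, members minus short class, was -0.642 points (-0.975 to -0.326). Members with 2 were 4.27 points above it (2.73 to 6.14), those with 3 were 20.1 points above (13.7 to 27.5), and those with 4 or more were 44.4 points above (34.7 to 52.6). The pooled difference near 0 thus joined opposite differences, with 86.9% of members but 58.1% of the short class holding exactly 1 repeat. At a matched number of repeats, members also hold more repeat bases. When the summed length of all repeats in the peak was matched instead, members were below the short class in each bin. That match left the number of repeats unequal. No repeat of the short class exceeds 30 bp, so its peaks needed more repeats to reach a given sum. At 50 to 69 bp in all, 57 of 7860 members (0.725%) and 59 of 890 peaks of the short class (6.63%) were shared. At 70 to 99 bp the counts were 57 of 599 (9.52%) and 59 of 277 (21.3%), and at 100 bp or more they were 109 of 223 (48.9%, 42.4 to 55.4%) and 81 of 143 (56.6%, 48.5 to 64.5%). Of the members at 100 bp or more, those with 3 or more repeats were at 59.3% (99 of 167). Those with 2 were at 18.2% (10 of 55).

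**Figure D2:**
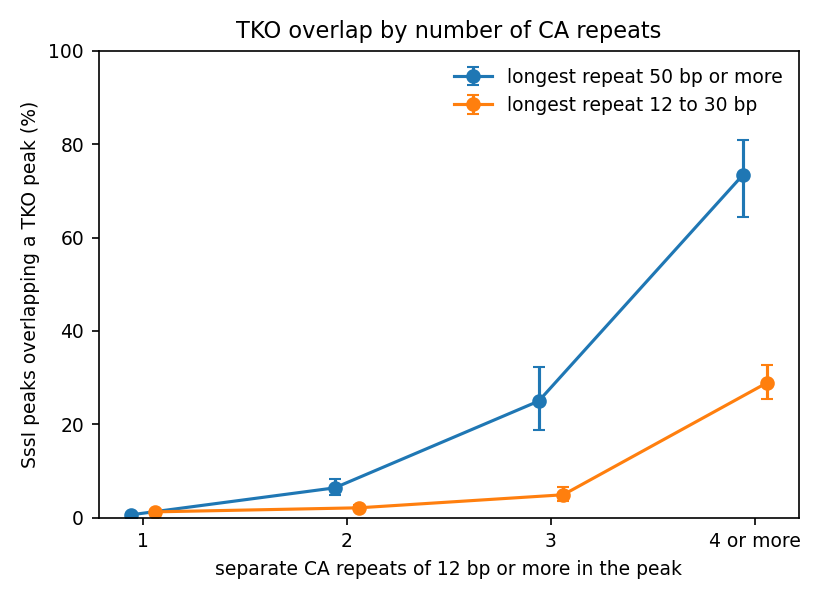
Share of CpG-free SssI peaks that overlap a TKO peak (%) by the number of separate CA repeats of 12 bp or more in the peak, for members (blue) and for the short class (orange); bars are 95% Wilson intervals. Members rise from 0.636% with 1 repeat to 73.4% with 4 or more, the short class from 1.28 to 28.95%.

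Total repeat length moved with the number of repeats, and the counts were too small to part them fully. Members with 60 to 69 bp of repeat in all were shared in 5 of 740 cases where it formed 1 repeat (0.676%, 0.289 to 1.57%) and in 10 of 368 where it formed 2 (2.72%, 1.48 to 4.93%). At 70 to 79 bp, 0 of 45 members with 1 repeat, 9 of 257 with 2 (3.50%) and 0 of 13 with 3 or more were shared. At 80 to 99 bp, 1 of 6 members with 1 repeat (16.7%, 3.00 to 56.4%), 27 of 193 members with 2 repeats (14.0%) and 20 of 85 with 3 or more (23.5%) were shared. At 100 bp or more, the counts were 10 of 55 (18.2%) and 99 of 167 (59.3%). Among members with exactly 2 repeats, the share also rose with the length of the shorter repeat. It was 14 of 541 at 12 to 19 bp (2.59%), 11 of 146 at 20 to 29 bp (7.53%) and 31 of 186 at 30 bp or more (16.7%).

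Members with 1 repeat could still hold CA stretches too short to be counted. Stretches of 6 to 11 bp were summed in each of these peaks, a measure added after the other results were seen. With none, 13 of 5055 were shared (0.257%, 0.150 to 0.440%). With 24 bp or more, 19 of 168 were shared (11.3%, 7.36 to 16.99%). The 48 shared members with 1 repeat had a median of 16 bp in such stretches, against 0 bp for the 7496 others. The 48 were also wider (median 278.5 bp against 189 bp) and had higher SssI scores (median 556 against 113). A wider peak has more room for such stretches, and the sums were not matched for width or score. Such stretches were not summed in the short class, so its comparison with members at 1 repeat was not matched for them.

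Peak width and score rose together with the number of repeats. Members with 1 repeat had a median width of 189 bp and a median score of 113, and those with 4 or more had 402 bp and 1053. Shared members had a median score of 977 (quartiles 643 and 1244) and a median width of 338 bp (287 and 404). The others had 120 (80 and 183) and 193 bp (167 and 216). The groups overlapped, as shared members began at a score of 66. Of 710 members with a score of 400 or more, 201 were shared (28.3%), while below 100 it was 4 of 3329 (0.120%). Of 386 members at least 300 bp wide, 155 were shared (40.2%), against 6 of 4848 under 200 bp (0.124%).

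Within bins of width, the order by number of repeats was seen only in the wider peaks, and there in part. Under 200 bp, 6 of 4709 members with 1 repeat, 0 of 135 with 2 and 0 of 4 with 3 were shared. From 200 bp to under 250 bp, 13 of 2552 with 1 repeat (0.509%, 0.298 to 0.870%), 5 of 382 with 2 (1.31%, 0.560 to 3.03%) and 0 of 23 with 3 were shared. These bins held 7805 of the 8682 members. At 300 bp or more the share was 19 of 50 with 1 repeat (38.0%, 25.9 to 51.8%), 29 of 156 with 2 (18.6%, 13.3 to 25.4%), 31 of 81 with 3 (38.3%, 28.5 to 49.2%) and 76 of 99 with 4 or more (76.8%, 67.5 to 84.0%). From 250 bp to under 300 bp it was 10 of 233 with 1 repeat (4.29%), 22 of 200 with 2 (11.0%), 8 of 48 with 3 (16.7%) and 4 of 10 with 4 or more. In the short class, only peaks with 4 or more repeats stood out within these 2 wider bins. At 300 bp or more its shares were 17.6% with 1 repeat, 23.1% with 2, 16.6% with 3 and 42.2% with 4 or more. From 250 bp to under 300 bp they were 7.06, 3.03, 4.69 and 16.2%. The part of width and score in the result was not tested further. The comparison with the short class also turned on the measure that was held fixed. At 300 bp or more, members were 13.2 points above the short class (7.75 to 18.8), but at a score of 400 or more the difference was -11.7 points (-16.4 to -6.98).

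**Figure D3:**
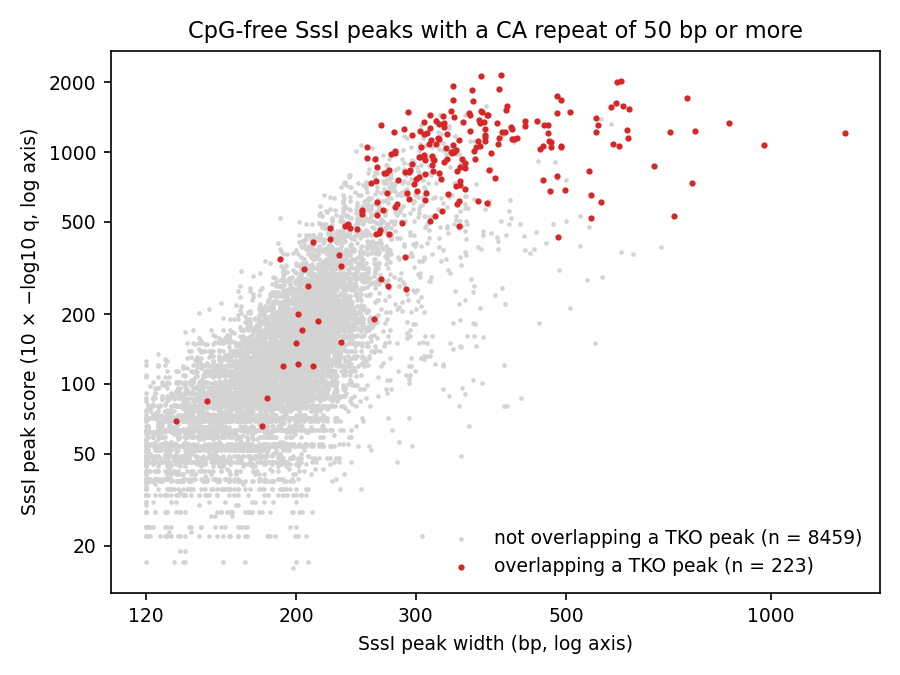
SssI score (10 × −log10 q, log axis) against SssI peak width (bp, log axis) for the 8682 members, 1 point each; red points overlap a TKO peak (n = 223) and grey points do not (n = 8459). Red points gather at the top right, around a median width of 338 bp and a median score of 977, among grey points of like width and score.

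Neither measure followed the number of CpGs just outside the peaks. Of the members, 1412 had no CpG within 200 bp of either side (16.3%), and 38 of them were shared (2.69%, 1.97 to 3.67%). The share was 1.99% with 1 CpG in the flanks, 2.82% with 2, 2.85% with 3 or 4 and 2.54% with 5 or more. For members with 1 repeat, the median SssI score was 113 with no flanking CpG, 109 with 1 and 113 with 5 or more. Their shared count was 7 of 1200 with none (0.583%) and 5 of 1063 with 5 or more (0.470%), a difference of -0.113 points (-0.785 to 0.581). Among peaks called on SssI DNA, members with 1 repeat and empty flanks thus had scores like those of the other members with 1 repeat. Repeats without an SssI peak are not in this comparison, so it does not show equal capture.

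CpGs inside the peak, which exclude a peak from the members, did move with the share. Of all 23651 autosomal SssI peaks with a CA repeat of 50 bp or more, 36.7% had no CpG. The share was 3.73% in peaks with 1 CpG (259 of 6951), 6.05% with 2, 10.5% with 3 or 4 and 22.0% with 5 or more (355 of 1613). Width rose in step, from a median of 194 bp without CpG to 255 bp with 5 or more. Restricted to peaks with 1 repeat and a width from 200 bp to under 250 bp, the share was 13 of 2552 without CpG (0.509%, 0.298 to 0.870%) and 9 of 482 with 5 or more (1.87%, 0.985 to 3.51%). Among peaks with 4 or more repeats, CpGs made no visible difference, with 80 of 109 shared without CpG (73.4%) and 399 of 544 with any (73.3%).

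**Figure D4:**
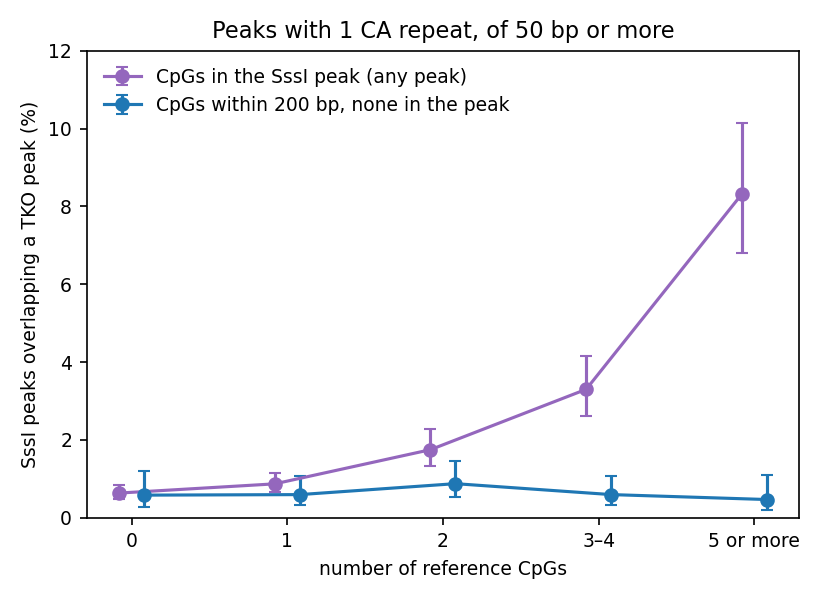
Share of autosomal SssI peaks with exactly 1 CA repeat, of 50 bp or more, that overlap a TKO peak (%), by the number of CpGs in the reference: within the peak for all such peaks (purple), or in the peak plus 200 bp on either side for the CpG-free members (blue); bars are 95% Wilson intervals. Purple rises from 0.636% without CpG to 8.32% with 5 or more, while blue stays between 0.470 and 0.878%.

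The comparison was also made from the genome rather than from the peaks. A repeat counted as captured when a peak overlapped it, so wider peaks can still take in more repeats. All autosomal CA repeats of at least 12 bp with no CpG within 100 bp were taken. Those of 50 bp or more numbered 8186, of which 7148 lay under an SssI peak (87.3%, 86.6 to 88.0%) and 409 under a TKO peak (5.00%, 4.55 to 5.49%). Of these, 6829 had no other repeat within 100 bp and are called isolated here. SssI capture of isolated repeats climbed with length, from 14.2% at 12 to 20 bp (4889 of 34551) to 39.2% at 31 to 40 bp, 82.6% at 50 to 54 bp (3624 of 4386) and 94.7% at 60 to 69 bp (593 of 626). The TKO share did not follow. It was 1.88% at 12 to 20 bp, 0.974% at 31 to 40 bp, 1.03% at 50 to 54 bp (45 of 4386, 0.768 to 1.37%) and 1.28% at 60 to 69 bp (8 of 626, 0.649 to 2.50%). A wider set took repeats of 50 bp or more with no other repeat within 100 bp, whether or not CpGs lay close by. In it, both shares were higher with more CpGs within 200 bp. An SssI peak lay over 2241 of 2657 repeats with no CpG (84.3%) and 4730 of 5043 with 5 or more (93.8%). A TKO peak lay over 28 (1.05%) and 135 (2.68%) of the same repeats.

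With neighbouring repeats the TKO share was higher at each length up to 69 bp. For repeats of 50 bp or more it was 72 of 6829 when isolated (1.05%, 0.838 to 1.33%), 98 of 943 with 1 other repeat within 100 bp (10.4%, 8.60 to 12.5%), 90 of 230 with 2 (39.1%, 33.1 to 45.6%) and 149 of 184 with 3 or more (81.0%, 74.7 to 86.0%). Repeats of 12 to 20 bp with 3 or more others were at 67.2% (10112 of 15057). Their SssI share was 96.8%, against 14.2% when isolated, so neighbours moved with capture from both DNAs at short lengths. Repeats that share a cluster share the same peak and are not independent. Reads may also map less well within long repeats, and this was not measured.

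**Figure D5:**
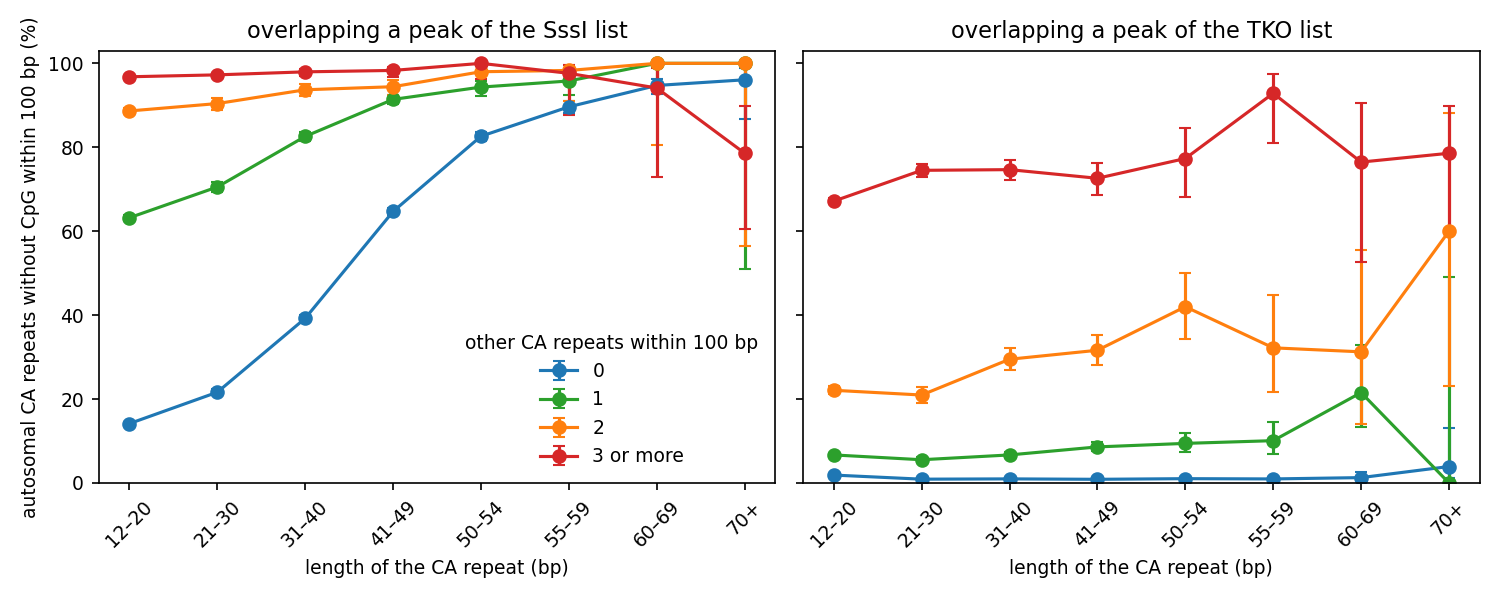
Share of autosomal CA repeats with no CpG within 100 bp that lie under an SssI peak (left) or a TKO peak (right), in %, by repeat length (bp) and by the number of other CA repeats of 12 bp or more within 100 bp; bars are 95% Wilson intervals. Isolated repeats (blue) rise from 14.2 to 96.1% in the SssI list and stay between 0.873 and 3.92% in the TKO list, while clustered repeats (red) lie at 67.2% or above in the TKO list.

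The 5 members with the longest repeats were mixed. The 108-bp repeat at chr8:40662511-40662831, between genes, had an SssI score of 738 and no TKO peak. The member at chr5:20978372-20979656, also between genes, was 1285 bp wide, held 926 bp of repeat in all, scored 1211 and overlapped a TKO peak with a score of 1074. The member at chr8:84623703-84623999 lay in intron 38 of Cacna1a, which encodes the pore-forming subunit of a neuronal calcium channel. Its 3 repeats, the longest of 99 bp, gave a score of 605 and no TKO peak. The remaining ones, at chr12:109856707-109856924 and chr3:19866979-19867151, lay between genes with scores of 334 and 243 and no TKO peak. Their repeats ran past the border of the peak and measured 273 and 413 bp in the genome. This applied to 74 members (0.852%).

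The 5 shared members with the highest SssI scores held 2 to 5 repeats, with a longest repeat of 50 to 59 bp. The first, at chr17:49372091-49372491 between genes, scored 2143 in the SssI list and 267 in the TKO list. The member in intron 2 of Lrp1b, at chr2:42251820-42252193, scored 2130 and 498. The member at chr8:7916793-7917393 scored 2028 and 881. The member in intron 2 of Islr, a leucine-rich repeat protein gene, at chr9:58195257-58195850, scored 2014 and 1180. The member at chr4:17851423-17851762 had no CpG within 200 bp and scored 1934 and 136. Scores of different lists rest on different libraries and controls, so only the order within a list can be read.

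High SssI scores also occurred without a TKO peak. Among the highest such members, 4 scored 1448, 1444, 1440 and 1393 and held 2 or 3 repeats each, with a longest repeat of 50 to 60 bp. The first of these was at chr11:30558369-30558694 in intron 3 of Acyp2 and had no CpG within 200 bp, like the shared member at chr4:17851423-17851762. The Sema4b member, in intron 13 at chr7:80222332-80222646, scored 502 and overlapped a TKO peak of score 324 with its lone 83-bp repeat.

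The TKO peaks over the members were modest within their own list. Their median score was 114 (quartiles 77 and 227), against 193 for all 14554 autosomal TKO peaks. The TKO peaks over the short class were alike, with a median score of 124 (quartiles 63 and 300.5), so this was not particular to the members. Each of the 223 shared members met a different TKO peak, and 220 of these TKO peaks had no CpG either. The TKO peak was the narrower in most cases, with a median of 206 bp, and was wider than the SssI peak in 8. It covered a median of 63.0% of the SssI peak. Seen from the TKO list, 371 of 3614 CpG-free autosomal TKO peaks held a repeat of 50 bp or more (10.3%). All 371 overlapped an SssI peak, as did 99.4% of all autosomal TKO peaks, and 198 of the 371 overlapped a member. The other 173 overlapped an SssI peak that contained a CpG. As only 198 overlapped a member, some of the 220 CpG-free TKO peaks over members held no unbroken repeat of 50 bp or more. A shared member's TKO peak thus did not always contain its long repeat in full.

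The repeat sat near the middle of its peak. Its midpoint was within 20 bp of the peak midpoint in 74.9% of members, with a median distance of 11 bp, against 23 bp in the short class. It made up a median of 27.9% of the peak. The longest alternating purine-pyrimidine tract anywhere in the peak was no longer than the repeat itself in 3927 members (45.2%). The median of this tract was 55 bp, and it need not be the tract that held the repeat. The longest tract exceeded the longest repeat by a median of 1 bp in members (quartiles 0 and 3) and 5 bp in the short class (0 and 15). The classes thus did not differ in CA repeat length alone. Median GC content was 42.9%, against 42.4% in the short class. The plus strand carried CA in 4330 members and TG in 4352, with TKO shares of 2.31 and 2.83%, a difference, TG minus CA, of 0.517 points with an interval from -0.151 to 1.19.

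Most members lay outside exons. By midpoint, 4851 were between genes (55.9%), 3712 in introns (42.8%), 60 in untranslated regions and 58 in other exons, and 1 was in a coding exon. The short class had 51.6% between genes and 47.0% in introns. The TKO share was 2.82% between genes (137 of 4851) and 2.24% in introns (83 of 3712), a difference of 0.588 points (-0.092 to 1.25). Members numbered 3.53 per Mb of autosome, from 2.88 to 4.49 on single autosomes. They fell in 2003 protein-coding genes, 1474 of which held exactly 1.

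The genes with the most members were long. Rbfox1, a splicing regulator, held 30 (19.7 per Mb of gene), with repeats of 50 to 82 bp, a median score of 126 and no TKO overlap. Nrg1, which encodes a ligand of ErbB receptors, held 20 (18.7 per Mb), 2 of which were shared, with scores of 39 to 1351. Lsamp, a neuronal adhesion gene, held 17, and Cntnap2, a gene of the neurexin family, held 16, with none shared in either. Sgcz, which encodes a sarcoglycan, held 14 (12.3 per Mb) with none shared. Dlg2, which encodes a synaptic scaffold protein, tied with it at 14 but with fewer per Mb (7.097), and 1 of its members was shared. Together with their length these counts are a description, as no expected number was computed. The share over all members was 2.57% (223 of 8682). Each gene held too few members for its shared count to be set against that share. Rps6kl1, Arid2, Eml1 and Ago2, at which the study examined affinity peaks, held 0 members, and no expected number was computed for them either.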

How the data were processed

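Affinity-seq with MBP-ZBTB43 and MBP was done in duplicate on SssI and TKO DNA. Per the labels and methods, the authors aligned reads to mm10 with BWA 0.7.17, pooled duplicates and called peaks with MACS2 2.2.7.1 at default settings over pooled MBP. The 2 deposited lists give intervals and the peak caller's score, 10 times the −log10 q-value. Depth is stated by the study only for affinity-seq libraries in general, the lists hold no counts, and some called peaks had been removed before deposit. Samples were grouped by their titles.

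CpGs and CA repeats of at least 12 bp were counted on GRCm38.p6, not in the DNA used. Overlap meant 1 bp or more. Midpoints were annotated with GENCODE M21, and intron numbers follow the transcript with the most exons. Wilson and Newcombe 95% intervals cover counting error only. No p-value was computed. Python 3.11.15, numpy 2.4.6, pandas 2.3.3 and scipy 1.17.1 were used. Repeat counting, overlaps and intervals were tested on simulated data.

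Members, bins and lists were chosen with earlier results of these data known. Regions named were the 5 members with the longest repeat, the 5 with the highest score in each of the shared and other members, members in 4 genes of the study, and the 5 genes with most members. A region that this rule names is not reported here. Alternatives changed the overlap, score thresholds, CpG window, width, purity, chromosomes, merging and length limits. X and Y were left out otherwise.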

Additional observations from a re-analysis of the deposited data

How the results depend on the processing

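No paired analysis was possible because the duplicates were pooled before peak calling. For the same reason no replicate was left out of the lists used here. Of 46 recomputed values, 25 stayed within the interval of the value reported, or within 1.5 times it for counts, 18 moved further, and 3 changed sign.

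The number of members, 8682, became 3320 without CpG within 100 bp, 1412 without CpG within 200 bp, 16148 with 1 substituted base, 27294 from 40 bp and 895 from 60 bp. The TKO share of the long class stayed between 2.26 and 2.79% under 9 of 12 alternatives. It was 0.375% in SssI peaks of 150 to 250 bp, 3.68% with 1 substituted base and 3.24% from 60 bp. The share of the short class was 2.50% when 50% of the SssI peak had to be covered, 4.69% for SssI peaks with q under 1e-05, 2.83% for TKO peaks with q under 1e-05, 2.49% without CpG within 200 bp, 0.562% in peaks of 150 to 250 bp, 3.84% at 12 to 20 bp and 2.74% at 21 to 30 bp.

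The difference, long minus short, was -1.89 points for SssI peaks with q under 1e-05, -1.27 against 12 to 20 bp and -0.17 against 21 to 30 bp. It changed sign to 0.20 without CpG within 200 bp, 0.75 with 1 substituted base and 0.033 from 60 bp. Under 8 of 14 alternatives it stayed within its interval, but in 2 of these its own interval reached past 0: with 50% of the peak covered (-0.241 points, -0.657 to 0.186) and at widths of 150 to 250 bp (-0.187 points, -0.444 to 0.053). The cause was not tested. What each list calls depends on depth, which the lists do not give, so a member without a TKO peak was not called there, which does not show that it was not bound.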

Other observations

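In protein-coding genes, the coding strand carried CA rather than TG in 1389 of 3196 members (43.5%, Wilson interval 41.7 to 45.2%). The short class had 2161 of 4842 (44.6%, 43.2 to 46.03%). All autosomal CA repeats of 50 bp or more with no CpG within 100 bp, captured or not, had 1277 of 2854 (44.7%, 42.9 to 46.6%). The 3 intervals overlapped.

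Among members with exactly 2 repeats, both ran on the same strand in 793 and on opposite strands in 80. A TKO peak overlapped 55 of the first (6.94%) and 1 of the second (1.25%), a difference, opposite minus same, of -5.69 points with an interval of -7.92 to 0.030. Where the gap between the repeats was 4 bp or less, 3.78% of 476 were shared, against 10.2% of 147 at 5 to 20 bp and 9.20% of 250 at 21 bp or more. These splits were made after the other results were seen, and they were not matched for peak width or for the length of the shorter repeat.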
